A study of Homo sapiens with 8 samples.

Results

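The type I interferon pathway was described through 9 genes, taken by symbol from the 19479 genes of the deposited expression tables: the ligand IFNB1, the receptor chains IFNAR1 and IFNAR2, the kinase JAK1, and the transcription factors STAT2, IRF1, IRF3, IRF7 and IRF9. All 9 were listed in the tables. RNA sequencing had been done on AC16, an established human line that proliferates in culture and derives from a fusion of ventricular heart cells with transformed fibroblasts. The labels name no engineered allele in it. The 8 libraries of total RNA fall into 4 groups of 2. Cells kept at 25 mM glucose for at least 3 passages received 25 mM more for the last 24 h (25 to 50 mM, replicates 2 and 3) or stayed there (25 mM, replicates 1 and 3). Cells kept at 5 mM received 45 mM more over the same time (5 to 50 mM, replicates 1 and 2) or stayed there (5 mM, replicates 1 and 3). The added glucose therefore differed between the rises, and in these groups glucose itself and the added solute cannot be told apart. The series describes its replicates as technical, so every p-value measures only the spread between these libraries. Each group is 1 line in 1 maintenance medium, and maintenance glucose cannot be told apart from anything else that differed between the culture lines kept at 25 and at 5 mM.

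Interferon beta and the interferon alphas bind a receptor of IFNAR1 and IFNAR2, whose chains carry Janus kinases such as JAK1. The kinases activate STAT proteins, and STAT2 acts with IRF9 in ISGF3, a complex that binds the interferon-stimulated response element (ISRE) in the promoters of antiviral genes. STAT dimers bind a shorter element, the gamma-activated site (GAS), and IRF1 is a classical target of it. IRF3 is present in most cells and is activated when viral nucleic acid is sensed, whereupon it switches on IFNB1. IRF7 is itself made in response to interferon and widens the response to the other type I interferons. In heart tissue the pathway is known from viral myocarditis and from the sensing of DNA released by injured cells.

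The promoters of 4 of these genes are shown because STAT2, IRF1, IRF9 and IFNB1 carry the differences between cultures described next. Each run is the 250 bases upstream of the RefSeq start on GRCh38.p14, 5' to 3' on the strand of the gene, and capitals mark letters that match GAS, searched on both strands as TTCNNNGAA. IRF1 lies at chr5:132490774-132491023 on the minus strand, IRF9 at chr14:24161015-24161264 on the plus strand, STAT2 at chr12:56360108-56360357 on the minus strand and IFNB1 at chr9:21077943-21078192 on the minus strand.
IRF1: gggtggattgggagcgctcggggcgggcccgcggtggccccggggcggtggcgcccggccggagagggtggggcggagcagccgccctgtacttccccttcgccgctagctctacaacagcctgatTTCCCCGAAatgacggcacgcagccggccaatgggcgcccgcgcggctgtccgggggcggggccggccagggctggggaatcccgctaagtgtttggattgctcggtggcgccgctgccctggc
IRF9: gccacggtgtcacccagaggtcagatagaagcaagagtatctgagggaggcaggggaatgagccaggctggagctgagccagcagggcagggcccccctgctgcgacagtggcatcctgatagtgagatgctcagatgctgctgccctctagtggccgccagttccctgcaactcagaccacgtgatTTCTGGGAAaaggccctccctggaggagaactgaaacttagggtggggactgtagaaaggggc
STAT2: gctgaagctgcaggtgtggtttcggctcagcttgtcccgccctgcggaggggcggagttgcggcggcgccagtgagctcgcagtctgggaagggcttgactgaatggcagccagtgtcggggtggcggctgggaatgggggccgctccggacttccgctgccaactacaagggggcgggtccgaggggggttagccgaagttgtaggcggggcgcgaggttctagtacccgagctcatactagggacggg
IFNB1: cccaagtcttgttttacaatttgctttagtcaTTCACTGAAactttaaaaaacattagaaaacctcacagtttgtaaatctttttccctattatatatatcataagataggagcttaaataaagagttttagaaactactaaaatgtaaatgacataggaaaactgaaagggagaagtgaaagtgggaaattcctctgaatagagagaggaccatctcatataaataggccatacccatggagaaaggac
The IRF1 match stood at positions -124 to -116 from the start, the IRF9 match at -63 to -55 and the IFNB1 match at -218 to -210. The window of STAT2 held no such letters. A RefSeq promoter was matched for 6 of the 9 genes, with 9 windows in all, and 3 of those genes held a GAS match. Over all 35116 promoter windows of the same length, 6.57% held the GAS letters. The ISRE letters, a pair of TTTC with any 2 bases between them on either strand, were in none of the windows of the 6 genes and in 3.02% of all windows; the ISRE and GAS letters were searched separately, so matches may overlap. These are matches of letters and not sites shown to be bound. IFNAR2, IRF3 and IRF7 were not matched.

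Expression is given as RPKM, reads scaled to gene length and to the library total, which allows levels to be compared between genes. Library totals recovered from the tables ran from 21538898 to 27372851 reads. Both tables share 1 set of gene lengths and each library was scaled on its own, with upper quartiles within 1.065-fold of each other, so levels were compared across the tables. The recovered lengths of IFNB1, IFNAR1, JAK1 and IRF1 equal their annotated coding lengths, whereas that of IRF7, 3142 bases, exceeds its 1660 coding bases. Gene spans are those of RefSeq on the hg38 assembly, and strands, coding lengths and overlapping genes are from GENCODE v29. STAT2 spans chr12:56341597-56360107, IRF1 chr5:132481609-132490773, IRF7 chr11:612555-615950 and IRF3 chr19:49659572-49665857, all on the minus strand, and IRF9 spans chr14:24161265-24166565 on the plus strand. JAK1 spans chr1:64833229-65067746 and IFNB1 chr9:21077104-21077942 on the minus strand. IFNAR2 at chr21:33229938-33265664 and IFNAR1 at chr21:33324395-33359864 are near each other on the plus strand. Whether counting used strand is not given in the sources used here. IRF1 overlaps C5orf56 on the opposite strand over 7094 bases. C5orf56 is annotated as a processed transcript, so it has no coding bases to share, and overlap of other exon bases was not counted. IRF3 overlaps BCL2L12, with no shared coding bases. All 9165 bases of IRF1 also lie within AC116366.3 on the opposite strand, and all 5301 bases of IRF9 lie within AL136295.5 on the same strand. Both are annotated as protein-coding, share 0 coding bases with IRF1 or IRF9, and are not listed in the tables. IFNAR2 shares 1548 coding bases with AP000295.1 on the same strand, also not listed, so how reads were divided between such pairs cannot be told from the tables. The cells were also checked against markers. None of 12 cardiomyocyte markers reached a mean of 1 RPKM in any group, with MB, MYL2 and NKX2-5 at 0 in all 8 libraries, whereas all 10 fibroblast markers did.

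The 4 transcription factors of the interferon response, STAT2, IRF1, IRF7 and IRF9, were lower in 25 mM cultures than in 5 mM cultures, by 1.94-fold to 2.60-fold on the log2(RPKM + 1) scale. Among the genes that carry the signal to them, IFNAR1, IFNAR2, JAK1 and IRF3 did not pass the test. The same 4 factors were lower in 25 to 50 mM than in 5 to 50 mM cultures, by 2.47-fold to 3.61-fold. IFNB1 was read at a few counts in cultures started at 5 mM, and at 1 read in 4 libraries started at 25 mM. In the 24 h rise to 50 mM no change of the 8 genes that could be tested passed, from either start.

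STAT2, the signal-transducing STAT specific to type I and type III interferon, stood at 27.9 and 26.6 RPKM in 25 to 50 mM and at 29.9 and 35.8 RPKM in 25 mM libraries. It stood at 72.7 and 74.5 RPKM in 5 to 50 mM and at 67.8 and 67.1 RPKM in 5 mM libraries. All 4 libraries started at 25 mM were below all 4 started at 5 mM, and no neighbouring groups in the order of means overlapped. IRF9, the DNA-binding partner of STAT2, had 19.1 and 16.2 RPKM in 25 to 50 mM and 16.9 and 25.7 RPKM in 25 mM libraries. IRF9 had 62.2 and 65.7 RPKM in 5 to 50 mM and 52.0 and 60.0 RPKM in 5 mM libraries. Its 25 to 50 mM and 25 mM groups overlapped, with 25 mM replicate 3 well above replicate 1, and every other pair of neighbouring groups was apart.

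IRF1, a factor that activates antiviral and antigen-presentation genes, had 15.4 and 13.6 RPKM in 25 to 50 mM and 14.6 and 16.3 RPKM in 25 mM libraries. It had 36.5 and 37.98 RPKM in 5 to 50 mM and 31.0 and 30.5 RPKM in 5 mM libraries. The order of groups was that of IRF9, again with the groups started at 25 mM overlapping. C5orf56, on the other strand of the IRF1 locus, had 2.18 and 3.05 RPKM in 25 to 50 mM, 2.12 and 2.50 RPKM in 25 mM, 4.96 and 4.38 RPKM in 5 to 50 mM and 3.54 and 3.72 RPKM in 5 mM libraries. Every library started at 25 mM was below every library started at 5 mM for C5orf56 as well, and without strand the reads of the pair cannot be told apart.

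IRF7, the amplifier of the interferon alphas, was the least abundant of the 4 factors, with 2.30 and 1.82 RPKM (178 and 143 reads) in 25 to 50 mM and 2.30 and 3.26 RPKM (193 and 278 reads) in 25 mM libraries. It had 10.2 and 9.88 RPKM (747 and 721 reads) in 5 to 50 mM libraries, and 5.39 and 10.6 RPKM (365 and 908 reads) in 5 mM libraries. The 5 mM values lay on either side of the 5 to 50 mM values, and all 4 were above every library started at 25 mM.

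IRF3, the constitutive sensor-activated factor, was level, with 67.1 and 61.6 RPKM in 25 to 50 mM, 65.8 and 69.5 RPKM in 25 mM, 66.8 and 70.1 RPKM in 5 to 50 mM and 62.1 and 72.0 RPKM in 5 mM libraries. Every pair of neighbouring groups overlapped. JAK1 had 75.1 and 77.4 RPKM in 25 to 50 mM, 80.4 and 77.9 RPKM in 25 mM, 68.5 and 71.9 RPKM in 5 to 50 mM and 73.5 and 67.5 RPKM in 5 mM libraries. All 4 libraries started at 25 mM were above all 4 started at 5 mM, by a small margin. The 25 mM group was apart from and above the 25 to 50 mM group, and the 5 to 50 mM and 5 mM groups overlapped.

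The receptor chains differed in level from each other more than between cultures. IFNAR1 had 47.4 and 49.4 RPKM in 25 to 50 mM, 45.4 and 48.3 RPKM in 25 mM, 46.8 and 46.2 RPKM in 5 to 50 mM and 44.3 and 45.4 RPKM in 5 mM libraries. IFNAR2, the chain that binds the ligand most tightly, had 16.1 and 17.0 RPKM in 25 to 50 mM, 16.3 and 19.7 RPKM in 25 mM, 17.7 and 16.8 RPKM in 5 to 50 mM and 19.4 and 18.6 RPKM in 5 mM libraries. For IFNAR1 only the lowest groups, 5 to 50 mM and 5 mM, were apart as neighbours, and for IFNAR2 every pair of neighbours overlapped.

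**Figure D1:**
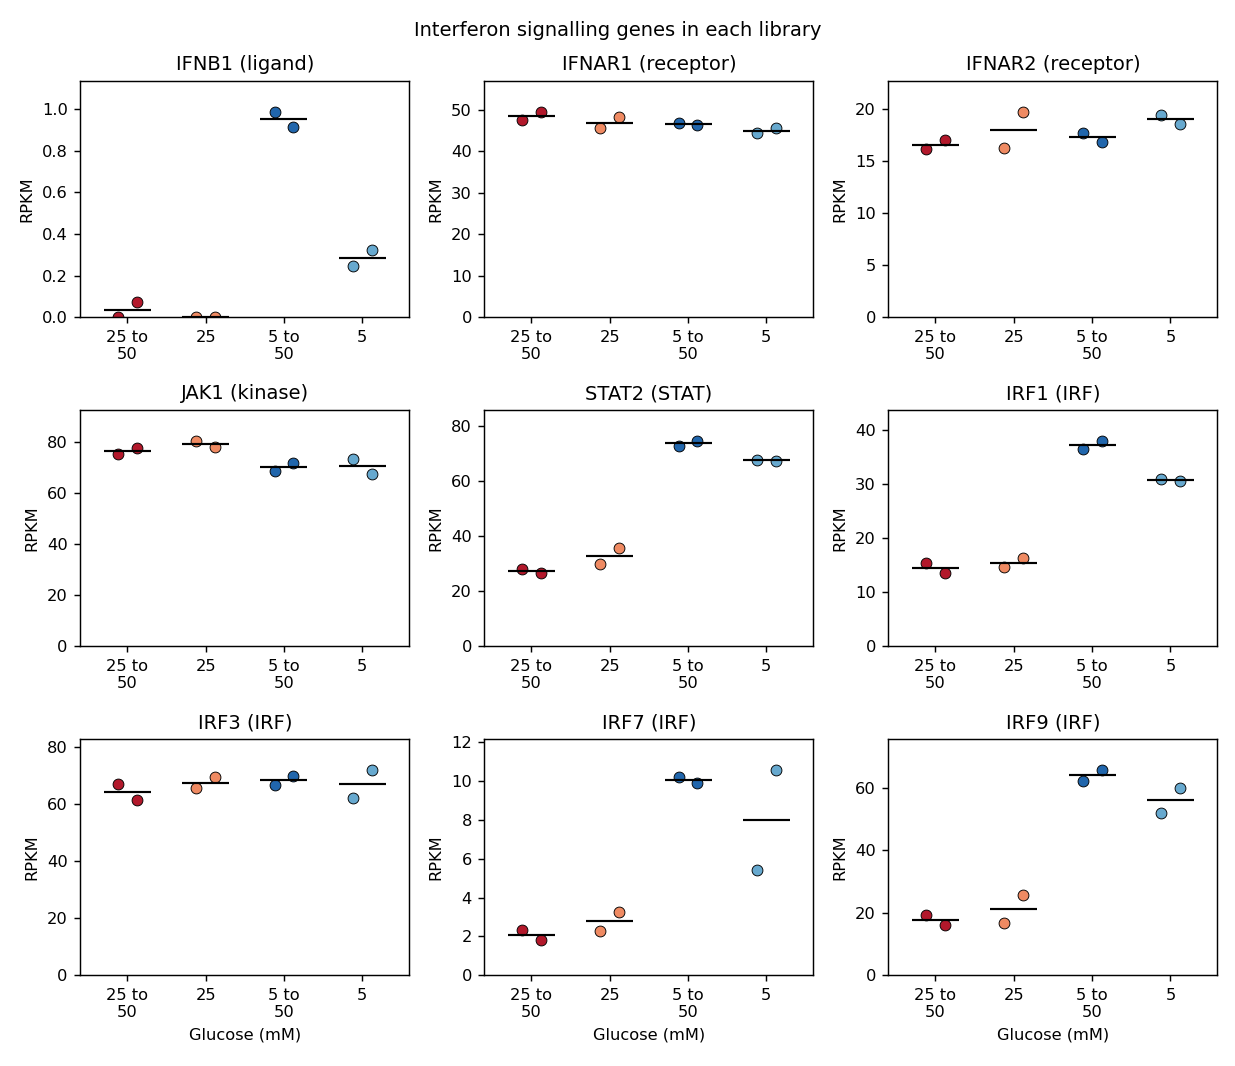
RPKM of the 9 genes in each of the 8 libraries, 1 panel a gene with its own vertical axis. Points are libraries and bars are the means of the 2 libraries of a group. STAT2, IRF1, IRF7 and IRF9 sit lower in both groups started at 25 mM, while IFNAR1, IFNAR2, JAK1 and IRF3 stay near 1 level.

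IFNB1, the interferon that most non-immune cells make, was near the limit of the depth. It was read 0 times and 1 time in the 25 to 50 mM libraries, 0 times in both 25 mM libraries, 13 and 12 times in the 5 to 50 mM libraries, and 3 and 5 times in the 5 mM libraries. In RPKM this was 0 and 0.071 in 25 to 50 mM, 0 in both 25 mM, 0.987 and 0.916 in 5 to 50 mM and 0.247 and 0.324 in 5 mM libraries. The groups started at 25 mM overlapped, and those started at 5 mM were apart from each other and above them.

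Over the pooled reads of a group, with exact Poisson intervals that cover counting error only, IFNB1 was at 0.952 RPKM (95% interval 0.616 to 1.41, 25 reads) in 5 to 50 mM and at 0.290 RPKM (0.125 to 0.571, 8 reads) in 5 mM cultures. That is a ratio of 3.28 with an interval of 1.44 to 8.42. The 1 read of the 25 to 50 mM group gives 0.0358 RPKM (0.000906 to 0.199), which is 0.0376 of the 5 to 50 mM level with an interval of 0.000916 to 0.230. In 25 mM cultures IFNB1 had 0 reads, against 8 in 5 mM cultures, and the exact interval of that ratio ran from 0 to 0.532. A floor of 3 reads over the 25 mM group, 0.0988 RPKM, set against the pooled 5 mM level makes IFNB1 at least 2.94-fold lower, a value that leaves out the counting error of the 8 reads. Both groups started at 25 mM were under that floor, and no fold is given between them. IFNB1 did not pass the filter of 1 RPKM in 2 libraries and was left out of the tests that follow. With that filter removed, limma gave adjusted p = 0.137 for 5 to 50 mM against 5 mM, 0.00257 for 25 mM against 5 mM and 8.01e-05 for 25 to 50 mM against 5 to 50 mM. These p-values rest on few reads. In bulk RNA, fewer cells that make a transcript and less of it in each cell cannot be told apart.

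The first comparison set the cultures that were not raised against each other. It used limma on log2(RPKM + 1) over all 8 libraries with 1 shared spread, two-sided, with Benjamini-Hochberg adjustment over 11941 genes and a threshold of 0.05. Of the 8 genes tested, 4 were lower in 25 mM than in 5 mM cultures and 0 were higher. Of all genes tested, 22.1% were lower and 17% higher, 39.1% in either direction. Quantile normalization turned the split over all genes to 2068 lower and 2648 higher, against 2639 lower and 2032 higher as deposited, and called the same 4 genes lower. Called genes are thus common between these cultures, and the sizes say more than the counts. The median log2 change of the 8 genes was -0.52, beside -0.00 over all genes tested. The groups of 6 of the 8 genes were apart, beside 67.8% of all genes.

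STAT2 averaged 32.8 ± 4.19 RPKM in 25 mM and 67.4 ± 0.468 RPKM in 5 mM cultures (SD, n = 2 each), 2.03-fold lower with a log2 change of -1.02 (SE 0.08, limma adjusted p = 7.03e-05). IRF9 averaged 21.3 ± 6.26 RPKM in 25 mM and 56.01 ± 5.67 RPKM in 5 mM cultures, 2.60-fold lower at -1.38 (SE 0.18, limma adjusted p = 0.000707). The components of ISGF3 among the 9 genes thus fell together. IRF1 averaged 15.4 ± 1.17 RPKM in 25 mM and 30.8 ± 0.340 RPKM in 5 mM cultures, 1.94-fold lower at -0.95 (SE 0.08, limma adjusted p = 8.44e-05). IRF7 averaged 2.78 ± 0.674 RPKM in 25 mM and 7.98 ± 3.65 RPKM in 5 mM cultures, 2.29-fold lower at -1.20 (SE 0.26, limma adjusted p = 0.00819). The call for IRF7 was lost without 25 mM replicate 1, at -1.01 with adjusted p = 0.0656.

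JAK1 was the closest to a call in the other direction, with 79.1 ± 1.73 RPKM in 25 mM and 70.5 ± 4.23 RPKM in 5 mM cultures and a log2 change of 0.17 (95% interval 0.03 to 0.30, limma adjusted p = 0.0523). It passed in a test of the recovered reads with limma-voom, at adjusted p = 0.0401, and without 5 mM replicate 1, at 0.23 with adjusted p = 0.0172. IFNAR1 gave 0.06 (95% interval -0.06 to 0.19, limma adjusted p = 0.402). IFNAR2 gave -0.08 (-0.30 to 0.14, limma adjusted p = 0.533), and IRF3 gave 0.02 (-0.17 to 0.20, limma adjusted p = 0.897). For these genes, changes as large as those of STAT2 or IRF9 lie outside the intervals.

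The next comparison set the raised cultures side by side, again over all 8 libraries. Of the 8 genes, 4 were lower in 25 to 50 mM than in 5 to 50 mM cultures and 0 were higher, beside 23.3% of all genes lower and 18.1% higher, 41.4% in either direction. Over all genes this split was 2782 lower and 2164 higher as deposited, 2377 lower and 2799 higher after median centring, and 2046 lower and 3081 higher after quantile normalization, with the same 4 calls. STAT2 averaged 27.2 ± 0.906 RPKM in 25 to 50 mM and 73.6 ± 1.32 RPKM in 5 to 50 mM cultures (SD, n = 2 each), a log2 change of -1.40 (SE 0.08, limma adjusted p = 1.37e-05). IRF9 averaged 17.7 ± 2.06 RPKM in 25 to 50 mM and 63.9 ± 2.46 RPKM in 5 to 50 mM cultures, at -1.80 (SE 0.18, limma adjusted p = 0.000178). Both differences were larger in value than those between the cultures that were not raised. IRF1 averaged 14.5 ± 1.22 RPKM in 25 to 50 mM and 37.2 ± 1.06 RPKM in 5 to 50 mM cultures, at -1.31 (SE 0.08, limma adjusted p = 1.54e-05). IRF7 averaged 2.06 ± 0.342 RPKM in 25 to 50 mM and 10.0 ± 0.216 RPKM in 5 to 50 mM cultures, at -1.85 (SE 0.26, limma adjusted p = 0.00100), the farthest apart of the 4. JAK1 at 0.12, IFNAR1 at 0.06, IFNAR2 at -0.06 and IRF3 at -0.09 gave limma adjusted p from 0.136 to 0.669. The groups of 6 of the 8 genes were apart again, beside 74.8% of all genes.

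**Figure D2:**
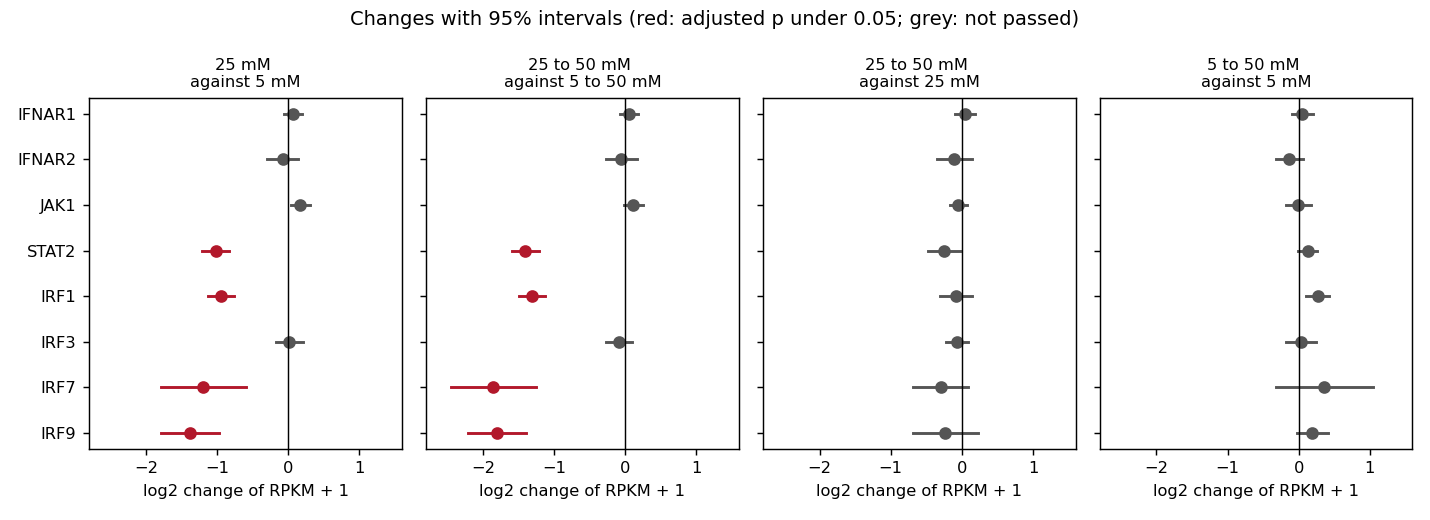
Log2 change of the 8 tested genes in 4 panels, 1 for each comparison of a pair of groups, on the log2(RPKM + 1) scale with 95% intervals from limma. Red marks an adjusted p under 0.05, grey marks the rest, and the vertical line is 0. STAT2, IRF1, IRF7 and IRF9 lie left of 0 in the comparisons of 25 mM with 5 mM starts, between -0.95 and -1.85, and the rises stay within 0.36 of 0.

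The rise within each culture line was fitted on its own 4 libraries. From 5 mM, 0 of the 8 genes were called by limma, beside 0.329% of 11849 genes. By limma-voom the count was also 0, and at an unadjusted p under 0.05 it was 1, beside 10.5% of all genes. That gene was IRF1, with 37.2 ± 1.06 RPKM in 5 to 50 mM and 30.8 ± 0.340 RPKM in 5 mM cultures and a log2 change of 0.27 (95% interval 0.11 to 0.43, limma adjusted p = 0.267). STAT2 at 0.12 (-0.01 to 0.26) and IRF9 at 0.19 (-0.03 to 0.41) had groups that did not overlap, at limma adjusted p of 0.524 and 0.533. The groups of 5 of the 8 genes were apart, 4 with 5 to 50 mM above 5 mM and 1 below, beside 16.6% of all genes apart above and 26% apart below. IRF7 gave 0.36 (-0.32 to 1.04, limma adjusted p = 0.728), and its value turned on the 5 mM libraries. Without 5 mM replicate 3 it was called at 0.79 (adjusted p = 0.0122), as was IRF9 at 0.29 (adjusted p = 0.0428), and without 5 mM replicate 1 IRF7 was at -0.07. IFNAR1, IFNAR2, JAK1 and IRF3 ranged from -0.13 to 0.05.

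From 25 mM, limma called 0 of the 8 genes, beside 0.00876% of 11422 genes. At an unadjusted p under 0.05 there was 1, beside 9.25% of all genes, and by limma-voom there were 0. STAT2 was that gene, with 27.2 ± 0.906 RPKM in 25 to 50 mM and 32.8 ± 4.19 RPKM in 25 mM cultures and a log2 change of -0.26 (95% interval -0.48 to -0.03, limma adjusted p = 0.508). IRF7 gave -0.30 (-0.68 to 0.09), IRF9 gave -0.23 (-0.68 to 0.22) and IRF1 gave -0.09 (-0.31 to 0.14), at limma adjusted p from 0.572 to 0.767. Groups were apart for JAK1 and STAT2, both lower in 25 to 50 mM, beside 29.1% of all genes apart in that direction.

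Whether the rises differed was tested as an interaction over all 8 libraries, and limma called 0 of the 8 genes, beside 0.0251% of 11941 genes. At an unadjusted p under 0.05 there were 2, STAT2 and IRF1, beside 6.04% of all genes, and limma-voom called 0. The rise from 25 mM minus the rise from 5 mM was -0.38 for STAT2 (95% interval -0.65 to -0.11, limma adjusted p = 0.622) and -0.35 for IRF1 (-0.61 to -0.09, limma adjusted p = 0.675). IRF7 gave -0.66 (-1.50 to 0.19) and IRF9 gave -0.42 (-1.002 to 0.16). IFNAR1, IFNAR2, JAK1 and IRF3 lay between -0.10 and 0.02. The values were negative for 7 of the 8 genes, as for 53.1% of all genes, and a difference between the rises was not shown for any of them. STAT2 was the 1 gene of the 8 with every library higher in the rise from 5 mM and lower in the rise from 25 mM, as were 2.3% of all genes.

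**Figure D3:**
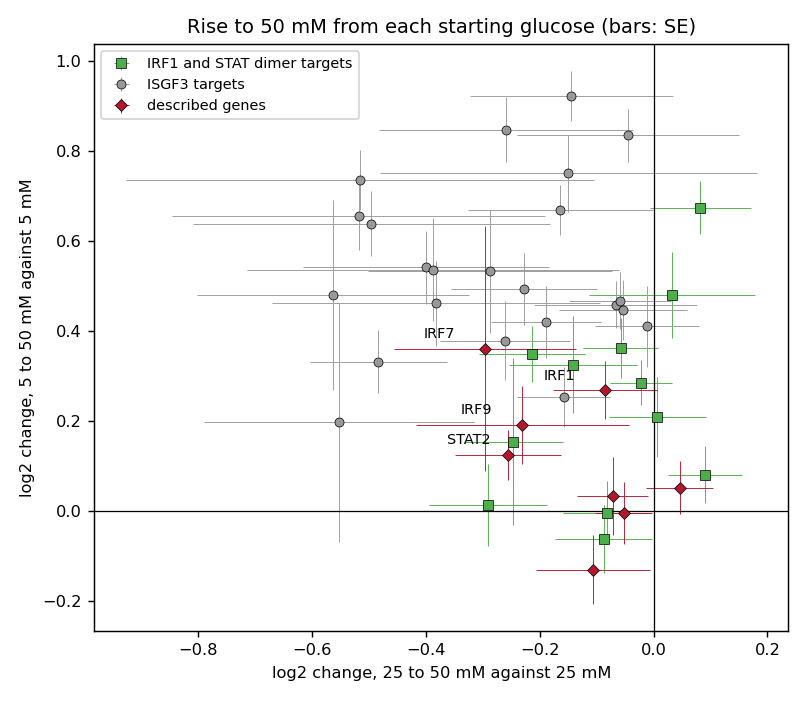
Log2 change in the rise from 5 mM (vertical) against that in the rise from 25 mM (horizontal) for the 8 described genes and the target genes tested in both, on the log2(RPKM + 1) scale, with bars of 1 SE from limma. STAT2, IRF1, IRF7 and IRF9 lie above and left of 0, from 0.12 to 0.36 vertically and from -0.30 to -0.09 horizontally, and none of these values passed the test.

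The genes that interferon factors control were listed from textbook knowledge, with earlier results of these data known, and are described by their counts. Of 27 targets of ISGF3, all 27 were lower in 25 mM than in 5 mM cultures, with a median log2 change of -2.34 beside -0.00 over all genes. OAS1, which makes the messenger that activates RNase L, averaged 4.36 ± 3.34 RPKM in 25 mM and 52.3 ± 2.06 RPKM in 5 mM cultures, at -3.47 (limma adjusted p = 0.000285). The antiviral GTPase MX1 averaged 8.65 ± 4.46 RPKM in 25 mM and 73.3 ± 0.495 RPKM in 5 mM cultures, at -3.03 (limma adjusted p = 0.000156). These values lay farther from 0 than those of STAT2 and IRF9. IFIT2, which binds viral RNA and restrains translation, averaged 12.9 ± 3.89 RPKM in 25 mM and 98.1 ± 0.129 RPKM in 5 mM cultures, at -2.86 (limma adjusted p = 1.34e-05). In the raised cultures all 27 were lower in 25 to 50 mM than in 5 to 50 mM, with a median of -3.20 beside -0.02 over all genes.

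Of 18 tested targets of IRF1 and of STAT dimers, 17 were lower in 25 mM than in 5 mM cultures (median -1.08) and 18 were lower in 25 to 50 mM than in 5 to 50 mM (median -1.54). CXCL10, a chemokine that draws T cells, averaged 0.125 RPKM in 25 mM and 10.0 ± 0.935 RPKM in 5 mM cultures, at -3.29. The 25 mM value is 1 read in each library, below the floor of 3 reads (0.379 and 0.372 RPKM). CXCL10 passed the filter only through libraries started at 5 mM and so had to differ. GBP1, a guanylate-binding protein of cell-autonomous defence, averaged 26.0 ± 3.12 RPKM in 25 mM and 59.1 ± 2.24 RPKM in 5 mM cultures, at -1.16 (limma adjusted p = 3.18e-05). CXCL10 was thus near 0 in 25 mM cultures, where GBP1 was still well expressed.

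Sensors and adaptors that activate IRF3 and IRF7 were lower for 7 of 13 in 25 mM against 5 mM cultures, with 0 higher, beside 22.1% of all genes lower and 17% higher. IFIH1, which senses long double-stranded RNA, averaged 3.28 ± 0.666 RPKM in 25 mM and 24.4 ± 1.46 RPKM in 5 mM cultures, at -2.57 (limma adjusted p = 5.75e-06). DDX58, the sensor of RNA ends, averaged 9.64 ± 2.70 RPKM in 25 mM and 59.8 ± 1.11 RPKM in 5 mM cultures, at -2.54 (limma adjusted p = 1.58e-05). Both sensors are themselves interferon-induced genes by textbook knowledge. TMEM173, the adaptor of DNA sensing known as STING, averaged 25.9 ± 3.53 RPKM in 25 mM and 41.0 ± 2.12 RPKM in 5 mM cultures, at -0.65 (limma adjusted p = 0.00111). In 25 to 50 mM against 5 to 50 mM cultures 6 of 13 were lower and 0 higher, beside 23.3% of all genes lower and 18.1% higher. Both counts include TLR3, which averaged 0.253 RPKM in 25 mM and 3.12 RPKM in 5 mM cultures. TLR3 passed the filter only through libraries started at 5 mM and so had to differ. Within the libraries started at 25 mM, 12 of the 13 passed.

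Of 14 tested negative regulators, 3 were higher and 1 lower in 25 mM than in 5 mM cultures, beside 17% of all genes higher and 22.1% lower, so the share that was higher was near that of all genes. The lower gene was USP18, which binds IFNAR2 and blocks the receptor, with 2.65 ± 1.23 RPKM in 25 mM and 28.8 ± 0.821 RPKM in 5 mM cultures, at -3.07 (limma adjusted p = 2.30e-05). The higher genes were PIAS3 at 0.47 and PIAS1 at 0.34, inhibitors that act on STATs, and the phosphatase PTPN11 at 0.30. USP18 is also induced by interferon by textbook knowledge. In the raised cultures the counts were likewise 3 higher and 1 lower in 25 to 50 mM, beside 18.1% and 23.3% of all genes.

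Of 5 other IRFs only IRF2, a repressor that competes with IRF1, passed the filter, and it averaged 13.9 ± 0.220 RPKM in 25 mM and 19.8 ± 0.128 RPKM in 5 mM cultures, at -0.49 (limma adjusted p = 0.000851). Of 20 other interferons only IFNE, an epithelial interferon, passed the filter, with 0.297 ± 0.171 RPKM in 25 mM and 1.14 ± 0.0386 RPKM in 5 mM cultures. The mean of IFNE was above that of IFNB1 in every group, on few reads, with 7 and 3 for IFNE in 25 mM libraries. In 5 to 50 mM libraries the genes overlapped. IFNE had 1.57 and 0.961 RPKM there (23 and 14 reads), and IFNB1 had 0.987 and 0.916 RPKM (13 and 12 reads). IFNE passed the filter only through the groups where it is high and so had to differ. The same holds for the list genes that are under 1 RPKM in libraries started at 25 mM, such as CXCL10: within those libraries 23 of the 27 ISGF3 targets and 12 of the targets of IRF1 and of STAT dimers passed the filter.

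**Figure D4:**
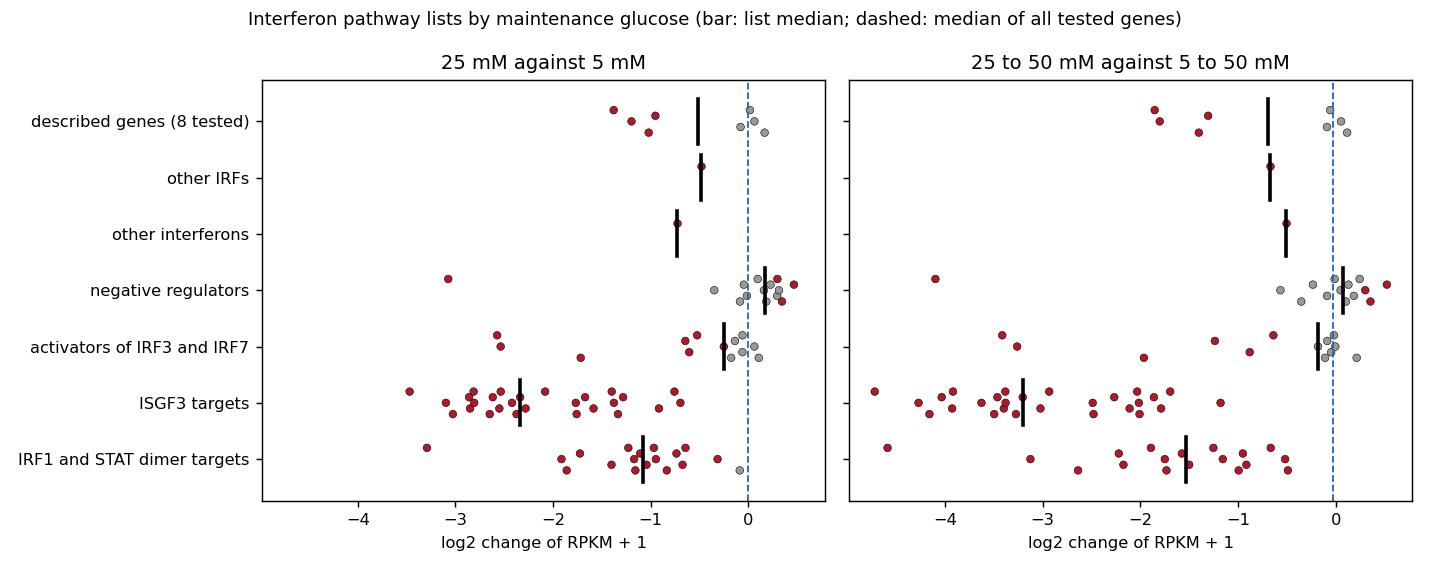
Log2 change of 25 mM against 5 mM and of 25 to 50 mM against 5 to 50 mM for the genes of 7 groups, the described genes and 6 lists, on the log2(RPKM + 1) scale. Each point is a tested gene, red where it passed at an adjusted p under 0.05 and grey where it did not, the bar is the median of its list, and the dashed line is the median of all tested genes. The ISGF3 targets lie lowest, with medians of -2.34 and -3.20, and the negative regulators lie around 0, with medians of 0.17 and 0.08.

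Other features moved with the maintenance glucose. Replication-dependent histone genes are a class whose transcripts typically end without the usual tail of adenines. All 9 tested were lower in 25 mM than in 5 mM cultures, at a median of -2.10, beside 22.1% of all genes. All 9 were lower in 25 to 50 mM than in 5 to 50 mM cultures, at -1.93, beside 23.3% of all genes. Within the libraries started at 25 mM only 6 passed the filter. HIST1H4H, HIST1H3D and HIST1H2AE passed only through libraries started at 5 mM and so had to differ. The summed level of the 10 listed histone genes was 65.6 to 66.8 RPKM in 25 to 50 mM and 48.5 to 53.8 RPKM in 25 mM libraries. It was 455.8 to 468.3 RPKM in 5 to 50 mM and 297.6 to 367.8 RPKM in 5 mM libraries. The 11 markers of leukocytes and plasmacytoid dendritic cells summed to 94.1 to 94.7 RPKM in 25 to 50 mM, 100.4 to 100.6 RPKM in 25 mM, 227.1 to 238.1 RPKM in 5 to 50 mM and 252.8 to 261.7 RPKM in 5 mM libraries. Most of each sum was CD68, so the sums followed 1 gene. CD68 averaged 85.8 RPKM in 25 to 50 mM and 91.5 RPKM in 25 mM cultures. It averaged 219.6 RPKM in 5 to 50 mM and 246.0 RPKM in 5 mM cultures. Of 4 tested markers, 2 were lower in 25 mM than in 5 mM cultures, beside 22.1% of all genes. In 25 to 50 mM against 5 to 50 mM cultures 4 were lower, beside 23.3% of all genes. Both counts include CSF1R, which passed the filter only through libraries started at 5 mM and so had to differ. CD3E of T cells and CLEC4C and LILRA4 of plasmacytoid dendritic cells were at 0 in all 8 libraries. PTPRC, which encodes the leukocyte surface protein CD45, was not at 0: it had 0.184 and 0.214 RPKM in 25 to 50 mM, 0.195 and 0.136 RPKM in 25 mM, 0.108 and 0.130 RPKM in 5 to 50 mM and 0.124 and 0.0856 RPKM in 5 mM libraries. It did not pass the filter, and every library started at 25 mM lay above every library started at 5 mM. The part of either in the interferon values was not tested.

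In the rise from 5 mM, 6 of the 27 ISGF3 targets were called higher in 5 to 50 mM than in 5 mM cultures, beside 0.312% of all genes, and all 27 had a positive value, as had 40.5% of all genes (median 0.53, beside -0.03 over all genes). IFIT2 averaged 186.9 ± 7.38 RPKM in 5 to 50 mM and 98.1 ± 0.129 RPKM in 5 mM cultures, at 0.92 (limma adjusted p = 0.0269). OASL, a relative of the OAS enzymes that aids RNA sensing, averaged 239.5 ± 6.29 RPKM in 5 to 50 mM and 133.9 ± 6.34 RPKM in 5 mM cultures, at 0.83 (limma adjusted p = 0.0269). STAT2, IRF1 and IRF9 had smaller values in this rise and were not called. The 9 tested histone genes had a median of 0.42 in the same rise, with 0 called by limma. At an unadjusted p under 0.05 there were 5 histone genes, beside 10.5% of all genes, and their part was not tested. The calls included IFI44L, IFIT1 and OAS1. The count of 6 was 0 without 5 to 50 mM replicate 2 or without the filter, was 2 without 5 to 50 mM replicate 1, and was 23 without either 5 mM library.

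Of the targets of IRF1 and of STAT dimers, 2 of 18 were called higher in that rise, beside 0.312% of all genes. CXCL10 averaged 26.2 ± 2.36 RPKM in 5 to 50 mM and 10.0 ± 0.935 RPKM in 5 mM cultures, at 1.299 (limma adjusted p = 0.0269), and GBP1 was at 0.67 (limma adjusted p = 0.0293). DDX58 at 0.74 and USP18 at 0.78 (limma adjusted p = 0.0269 each) were the calls among 13 activators and 14 negative regulators, beside the same 0.312%. All 4 of these calls were lost when either 5 to 50 mM library was left out, without the filter, without the trend in limma and in the joint fit with the replicate block. In the joint fit of all 8 libraries the IRF1 and STAT dimer list had 6 calls and the activators and negative regulators 0. Without 5 mM replicate 1 the IRF1 and STAT dimer list had 9 calls and without 5 mM replicate 3 it had 10, with 3 activators called in each case. From 25 mM, limma called 0 targets in any list, beside 0.00876% of all genes. Of 23 tested ISGF3 targets, 1 had an unadjusted p under 0.05, beside 9.25% of all genes, and 0 were called by limma-voom. The values of these targets were negative for all 23, as for 63.7% of all genes, with a median of -0.26 beside -0.03 over all genes. For some targets the negative value rested on 25 mM replicate 3, which also enters the interaction. IFIT1 had 16.0 and 27.3 RPKM in 25 mM replicates 1 and 3, and 18.4 and 16.3 RPKM in 25 to 50 mM libraries. OASL had 16.5 and 26.5 RPKM, and 19.96 and 20.6 RPKM, in the same order. For 5 of 27 ISGF3 targets both 25 to 50 mM libraries lay below both 25 mM libraries, beside 29.1% of all genes. In the interaction 0 of 27 ISGF3 targets were called by limma or limma-voom. Of these targets, 22 had an unadjusted p under 0.05, beside 6.04% of all genes, and the median was -0.84 beside -0.01 over all genes.

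Across the 8 libraries the genes most like the called factors were sought among 9603 genes whose mean reached 5 RPKM, by Pearson's r of log2(RPKM + 1). For STAT2 these were PARP9 (r = 0.998), NMI (r = 0.998) and RNF31 (r = 0.997). For IRF1 they were IFI44L, CCL2 and PARP12 (r = 0.999 each), and for IRF9 they were IFITM1 (r = 0.999), RPRD1A (r = 0.997) and BST2 (r = 0.997). IRF7 was most like PLPP2, TMEM132A and CALHM2 (r = 0.994 each). The highest r was 0.989 for JAK1 (DLD), 0.962 for IRF3 (ZNF276), 0.962 for IFNAR2 (TCTN2) and 0.936 for IFNAR1 (KDELR2). These values describe likeness over libraries that fall into the same 4 groups, so a gene that splits the 2 starting glucose levels scores high with any other that does.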

How the data were processed

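The 9 genes, the other gene lists and the tests were chosen with earlier results of these data known. Per the submitters' processing notes, reads were handled with STAR and the hg38 build, and the authors deposited RPKM values in 2 tables, 1 per starting glucose; the counter, annotation and strand setting are not given in the sources used here. Read counts were worked back from these values (whole within 0.01 for 100% of 16297 genes above 0) to learn depth and lengths, with Python 3.11.15. Values were log2(RPKM + 1), for genes that reached 1 RPKM in 2 or more of the fitted libraries, tested with limma 3.58.1 in R 4.3.3 (mean-variance trend) after tests on simulated data. Intervals of IFNB1 are exact Poisson at 95%. Replicates differed beyond counting error (chi-square per degree of freedom 2.54 to 15.93), so none was merged in the limma tests. The pooled reads of IFNB1 are the exception, and their intervals leave this spread out. Alternatives were another pseudocount, filter or scaling, no trend, voom on recovered reads, a joint fit, a replicate block and leaving out each library. The rule named all 9 genes, up to 4 called genes per list and comparison with the largest change, and the 3 most alike per gene; some of these are printed. The list of other receptors, kinases and STATs is not reported here. Promoters come from RefSeq on GRCh38.p14.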

Additional observations from a re-analysis of the deposited data

Results flagged for a closer look

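STAT2 and TMEM173 were flagged among only the described genes and the list genes that the naming rule picked and the text prints. In both, every 5 to 50 mM library lay above every 5 mM library. Every 25 to 50 mM library lay below every 25 mM library. The rise from 25 mM minus the rise from 5 mM was -0.38 for STAT2 and -0.59 for TMEM173 on the log2 scale, and neither difference passed the interaction test in limma (adjusted p = 0.622 for STAT2 and 0.406 for TMEM173). TMEM173 averaged 22.9 ± 0.164 RPKM in 25 to 50 mM, 25.9 ± 3.53 RPKM in 25 mM, 55.3 ± 2.06 RPKM in 5 to 50 mM and 41.0 ± 2.12 RPKM in 5 mM cultures (SD, n = 2 each). The same opposite pattern was held by 5 of 27 ISGF3 targets and by 3 of 18 targets of IRF1 and of STAT dimers, beside 2.3% of the 11941 genes tested. It was not tested for either list.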

How the results depend on the processing

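The 4 calls of STAT2, IRF1, IRF7 and IRF9 held under every alternative run in both comparisons between starting glucose levels, except that of IRF7 without 25 mM replicate 1. The genes called over the whole table moved more. From 5 mM (39 genes) there were 0 with no filter on low values, 60 with median centring, 61 with quantile normalization, 0 without trend, 130 in a joint fit of all 8 libraries, 0 in that joint fit with a replicate block, and 0 to 805 when 1 library was left out. The genes described here went from 0 to 2 called in those fits, the 2 without 5 mM replicate 3. The 6 ISGF3 targets called in that rise were 10 with median centring or limma-voom, 11 with quantile normalization, 2 in the joint fit and 0 without trend or with the replicate block. From 25 mM (1 gene) there were 0 with no filter, 4 with median centring, 2 with quantile normalization, 0 without trend, 7 with limma-voom, 4 in the joint fit, 0 with the replicate block, and 0 to 777 with a library left out. For the difference between the rises (3 genes) there were 0 with a pseudocount of 0.1, 1 with no filter, 0 at a mean of at least 5 RPKM, 1 without trend, 0 with limma-voom, 0 with the replicate block, and 0 to 6 with a library left out. With a library left out, 25 mM against 5 mM gave 3024 to 4769 genes and 25 to 50 mM against 5 to 50 mM gave 3177 to 5733. Some values near 0 changed sign: JAK1 from 5 mM was 0.012 with median centring and 0.00078 with quantile normalization. IFNAR1 in the difference between rises was 0.035 with median centring and 0.0081 with quantile normalization, IFNAR2 in 25 to 50 mM against 5 to 50 mM was 0.0049 and 0.015, and IFNAR2 in the difference was -0.016 with the replicate block. With a library left out, the values from 5 mM ranged from -0.073 to 0.138 for IRF3, -0.067 to 0.787 for IRF7 and -0.065 to 0.056 for JAK1, and those from 25 mM from -0.238 to 0.025 for IFNAR2 and -0.521 to 0.059 for IRF9. In the difference they ranged from -0.049 to 0.037 for IFNAR1, -0.106 to 0.156 for IFNAR2, -0.210 to 0.0015 for IRF3 and -0.109 to 0.012 for JAK1. In 25 mM against 5 mM they ranged from -0.211 to 0.051 for IFNAR2 and -0.090 to 0.121 for IRF3. The cause of these moves was not tested. The replicate number was not used to pair samples in the main fits. Same-numbered libraries of 25 mM and 5 mM deviated together at r = 0.258, and other pairs at -0.186 to -0.670. With 2 libraries per group the 2 deviations of a group mirror each other, so these values cannot tell whether the number pairs samples. Within the own 4 libraries of a rise no paired analysis was possible because the groups share only 1 number. Depth limits IFNB1, where 3 reads over the 25 mM group are 0.0988 RPKM, and 2 libraries per group limit every spread.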
